A study of Mus musculus with 35 samples.

Results

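The 38 genes described here are a selection of those that carry out macroautophagy in mammalian cells, together with Tfeb and Tfe3. Tfeb and Tfe3 encode the transcription factors best known for driving autophagy and lysosome genes. The 38 genes were taken as a list of named genes and matched to the 48709 genes counted in every library. Further genes of the process, such as Atg4a and Stx17, are described below as related genes. All 38 were found, and all 38 were among the 13819 genes with enough counts to be tested. The cells were OT-I CTLs, mouse CD8+ T cells with a transgenic receptor for ovalbumin that had been activated and expanded in culture with IL-2 before the experiment. The receptor is fixed by the transgene, so the cultures stand for T cells of a single specificity grown in vitro. From 5 biological replicates numbered 1 to 5, a library was made at the start (0 h) and after 24 h in 6 conditions, namely pH 7.4, pH 7 and pH 6.6, in medium with no IL-2 and in medium with mouse IL-2 at 200 IU/mL. Every group had 5 libraries, 35 in all. Besides IL-2 and the HCl that the paper's methods add to set the pH, no genotype, drug or other agent differed between the groups. Dead cells were removed from each culture by density separation before RNA was extracted.

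Autophagy encloses cytoplasm in a double membrane and delivers it to the lysosome. A kinase complex around ULK1 starts the process, a lipid kinase complex with VPS34 and Beclin 1 marks the membrane, WIPI, ATG2 and ATG9 proteins feed lipid to it, and 2 linked conjugation systems attach ATG8 proteins (LC3 and GABARAP) that cargo receptors such as p62 bind. In fed cells mTORC1 holds ULK1, TFEB and TFE3 in check by phosphorylation. IL-2 is a strong activator of mTORC1 in effector T cells, and the question put by the design was how acidity changes the response to it. The measurements below are transcript levels and say nothing directly about autophagic flux or about the phosphorylation of these proteins.

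The libraries held 16721319 to 34033340 counts on genes (median 24730020). The summed CPM of 7 CD8+ T-cell markers was 2275 to 13538 per library, with Cd8a at 674 to 1596 CPM, and it was 2275 to 4298 in the 4 groups with no IL-2 or at pH 6.6 after 24 h and 7805 to 13538 in the other 3, where Gzmb alone gave 4461 to 9010. The sum of 3 B-cell markers was at most 0.381 and that of 2 erythroid genes at most 0.235 CPM. That of 4 myeloid markers was at most 3.35, that of 2 dendritic-cell markers at most 6.40 and that of Cd4 and Foxp3 together at most 5.50, and 2 NK-cell markers summed to 8.27 to 95.0 CPM, nearly all from Klrb1c. The dendritic-cell sum came from Flt3 and was highest without IL-2 at pH 7.4 and pH 7 (0.984 to 6.40), with Siglech at 0 in every library, and the part of such cells in the results was not tested. The share of reads assigned to no gene was 3.91 to 5.18% at pH 7.4 with IL-2 and 7.34 to 8.83% at pH 6.6 with IL-2, and its part in the differences between those groups was not tested. The p-values rest on 5 biological replicates per group.

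Acidity raised most of these transcripts in the presence of IL-2. When pH 6.6 was compared with pH 7.4 in cells given IL-2, 29 of the 38 rose, 5 fell and 4 did not pass the test at an adjusted p of 0.05, with a median log2 fold change of 0.56 against -0.07 over all genes tested. In the same comparison 35.4% of all genes tested rose and 40.9% fell. The largest rises were those of Map1lc3a (2.52 on the log2 scale), Calcoco1 (2.42), Wipi1 (2.30) and Ulk1 (2.25), and 13 members rose by at least 1, where 34.4% of all genes tested passed with a change of that size in either direction. The falls were smaller and lay in the conjugation enzymes Atg3 (-0.84), Atg5 (-0.44), Atg7 (-0.42) and Atg4d (-0.28) and in the receptor Optn (-0.81). Log2 fold changes are given ± SE, and adjusted p-values come from edgeR's quasi-likelihood test with Benjamini-Hochberg adjustment over all genes tested. Levels are in CPM after TMM scaling, the share of a library's counts that fell on a gene. A change in the amount of RNA per cell, or in the number of cells of a kind, cannot be told apart from a change in these shares.

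**Figure D1:**
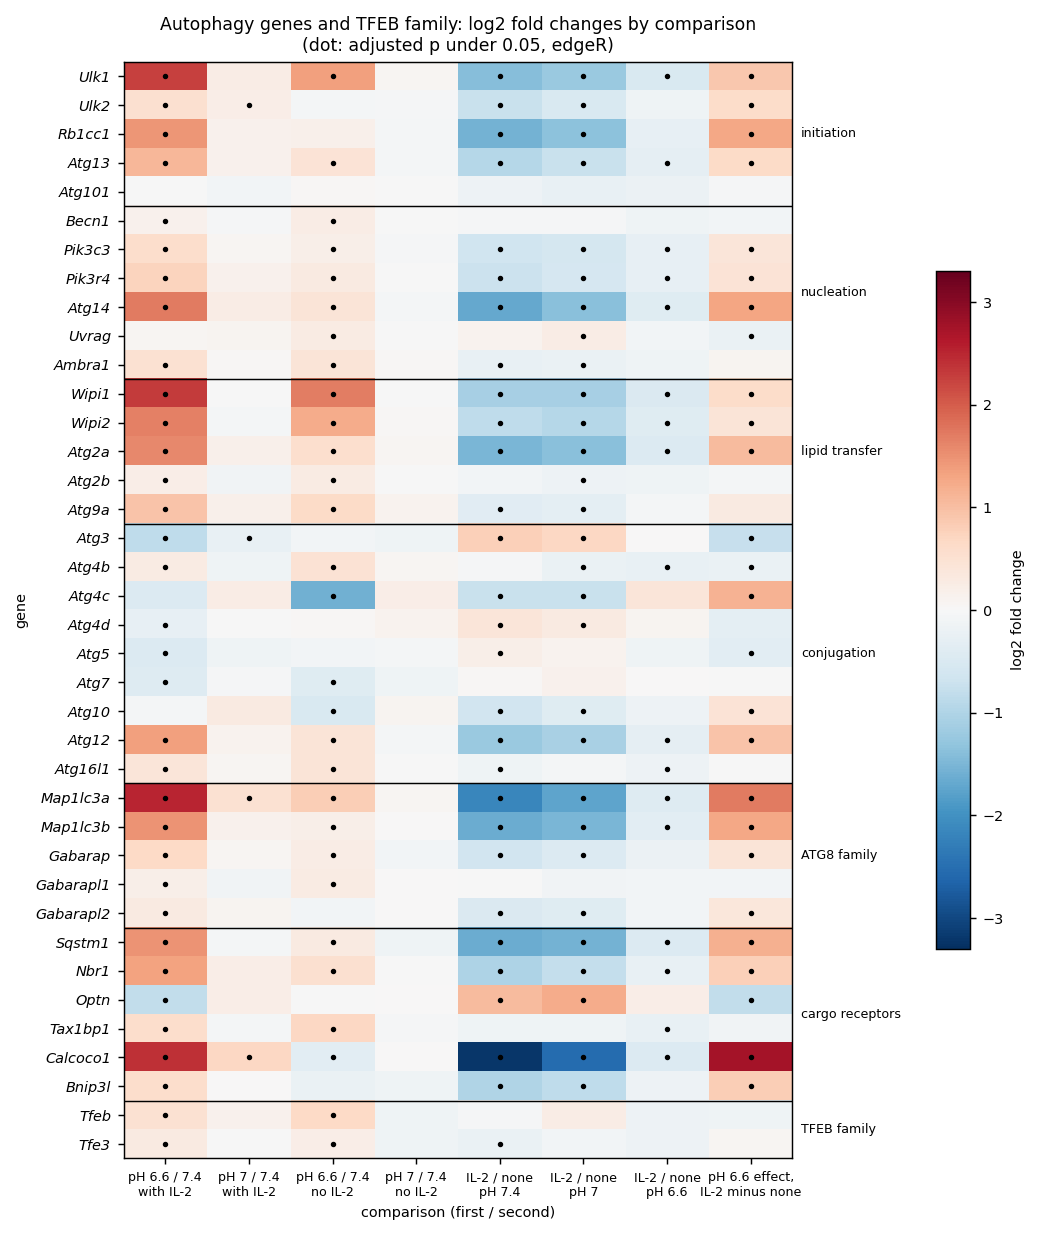
Log2 fold changes of the 38 genes (rows, grouped by role) in 8 comparisons (columns), with red for higher and blue for lower in the first-named condition and a dot where the edgeR adjusted p was under 0.05. The column for pH 6.6 against pH 7.4 with IL-2 is mostly red, the columns for IL-2 at pH 7.4 and pH 7 are mostly blue, and the column for pH 7 without IL-2 has no dot.

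Without IL-2 the direction was mostly the same and the size smaller. When pH 6.6 was compared with pH 7.4 in cells without IL-2, 25 members rose, 4 fell and 9 did not pass, with a median of 0.27 against -0.03 over all genes, and 31.6% of all genes tested rose and 35.4% fell. A rise passed in both settings for 24 members, against 15.9% of all genes tested, and Calcoco1 was the 1 member that passed in opposite directions, against 18.3% of all genes. Changes of at least 1 on the log2 scale were found without IL-2 for Ulk1, Wipi1, Wipi2 and Atg4c, where 20.5% of all genes tested passed with such a change. With a looser filter on low counts, which adds genes to the adjustment, the rises of Becn1, Atg2b and Gabarapl1 with IL-2 (adjusted p = 0.191, 0.0533 and 0.0864) and of Pik3c3 and Map1lc3b without it (adjusted p = 0.0635 and 0.094) did not pass. Whether acidity acted differently in the 2 settings was tested as an interaction, the effect of pH 6.6 in cells with IL-2 minus that in cells without, and it was positive for 21 members, negative for 5 (2 without replicate 1 or 2) and did not pass for 12, where 34.3% of all genes tested were positive and 32.8% negative.

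The 24-h groups without IL-2 and at low pH were the high end for most members, and IL-2 at neutral pH the low end. By mean CPM, 27 of the 38 genes were highest at pH 6.6 without IL-2, as were 21.8% of all genes tested. The lowest mean was with IL-2 at pH 7.4 for 19 members and with IL-2 at pH 7 for another 8, against 24% and 9.11% of all genes. IL-2 at pH 7.4 lowered 25 members and raised 4 against the same pH without IL-2, with a median of -0.63 against -0.04 over all genes, and 39.3% of all genes tested rose and 41.1% fell. At pH 6.6 IL-2 lowered 17 (10 without replicate 4) and raised 0, with a median of -0.18, where 13.2% of all genes tested rose and 10.6% fell. No member had an unadjusted p under 0.05 for a rise with IL-2 at pH 6.6, and DESeq2 called 0 as well. Of the 17, Atg16l1 did not pass in 10 of 12 alternatives and Tax1bp1 in 9, among them each of the fits without 1 replicate for Atg16l1 (adjusted p = 0.0706 to 0.232). The absolute effect of IL-2 was smaller in acid than at pH 7.4 for 30 of the 38, and for 86.6% of all genes tested. The comparison of IL-2 at pH 7.4 and that of pH 6.6 with IL-2 share the libraries at pH 7.4 with IL-2, so a library of that group that is low for a gene moves both.

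**Figure D2:**
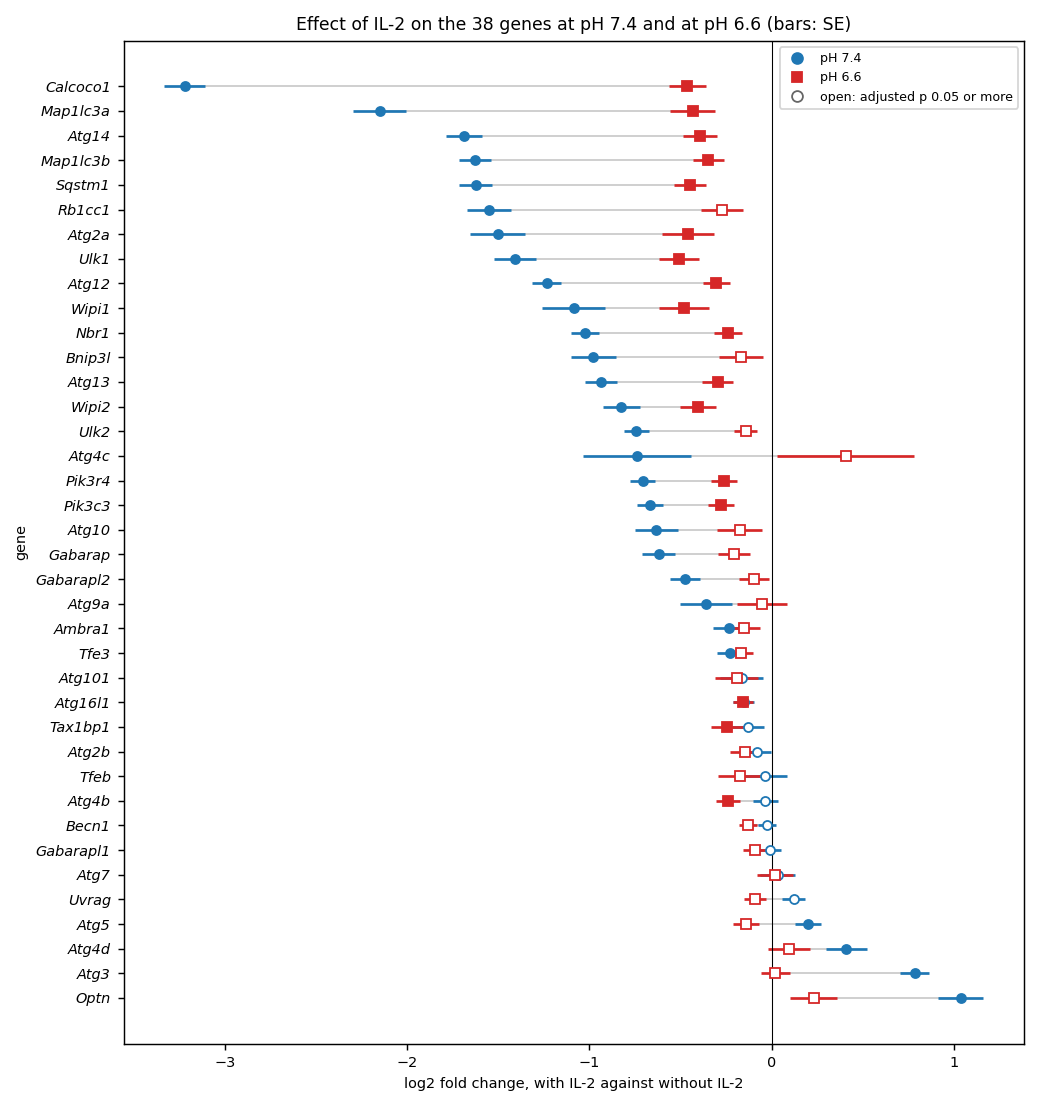
Log2 fold change of each of the 38 genes (vertical axis) with IL-2 against without IL-2 (horizontal axis), at pH 7.4 (blue circles) and pH 6.6 (red squares), with bars for the SE and open symbols where the adjusted p was 0.05 or more. At pH 7.4 the points reach from -3.22 for Calcoco1 to 1.04 for Optn, and at pH 6.6 the points that passed lie between -0.51 for Ulk1 and -0.16 for Atg16l1, a call that most alternatives lose.

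Tfeb and Tfe3 both rose at pH 6.6, by amounts that did not differ detectably with and without IL-2. Tfeb (chromosome 17, 47737030 to 47792419, plus strand of GRCm38) had a CPM with IL-2 of 11.4, 11.1, 10.5, 12.2 and 10.6 in replicates 1 to 5 at pH 7.4 and 13.4, 19.2, 15.1, 16.1 and 15.7 at pH 6.6. Without IL-2 its CPM was 12.7, 11.5, 11.9, 8.89 and 12.4 at pH 7.4 and 15.2, 17.9, 19.6, 18.9 and 18.1 at pH 6.6. At each IL-2 setting every library at pH 6.6 was above every library at pH 7.4. The log2 fold change was 0.51 ± 0.12 (adjusted p = 0.000294) with IL-2 and 0.65 ± 0.12 (adjusted p = 1.65e-05) without. Tfeb was 1 of 5 members, with Atg101, Becn1, Atg7 and Gabarapl1, for which no response to IL-2 passed at any pH, as for 13.6% of all genes tested. Its log2 fold changes with IL-2 against without were -0.04 (adjusted p = 0.784) at pH 7.4, 0.24 (0.0636) at pH 7 and -0.17 (0.295) at pH 6.6. The interaction was -0.14 with a 95% interval of -0.47 to 0.19. At 0 h the CPM was 13.1 to 20.1, which overlapped both groups at pH 6.6 and was above both groups at pH 7.4.

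Tfe3 (chromosome X, 7762560 to 7775202, plus strand) encodes the closely related factor TFE3, and per exon length (RPKM, the CPM per kilobase of exon) its level was 3.84 RPKM over the 35 libraries against 2.39 RPKM for Tfeb. Its CPM with IL-2 was 32.2, 31.2, 33.1, 30.7 and 34.9 at pH 7.4 and 34.1, 46.7, 39.98, 39.5 and 38.6 at pH 6.6, and without IL-2 35.7, 42.2, 35.5, 36.5 and 40.6 and 39.05, 48.4, 47.7, 44.9 and 43.5. The groups overlapped in each pair, and within each replicate the library at pH 6.6 was the higher in 5 of 5 pairs at both settings. The rise was 0.29 ± 0.07 (adjusted p = 0.000281) with IL-2 and 0.23 ± 0.07 (adjusted p = 0.00339) without, and the difference between them was 0.06 with an interval of -0.13 to 0.25. IL-2 lowered Tfe3 at pH 7.4 by a small margin (-0.23 ± 0.07, adjusted p = 0.00272). Of the other 2 genes of the family, Tfec did not have enough counts to be tested. With IL-2, Mitf was counted at 0.207 to 0.608 CPM at pH 7.4 and 0.0578 to 0.4997 CPM at pH 6.6, and its log2 fold change was -0.62 ± 0.36 (SE, adjusted p = 0.112). Without IL-2 Mitf fell at pH 6.6 (-2.35 ± 0.34, adjusted p = 3.72e-07), the opposite direction to Tfeb and Tfe3, at 0.420 to 1.17 CPM at pH 7.4 and 0.09802 to 0.423 at pH 6.6.

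**Figure D3:**
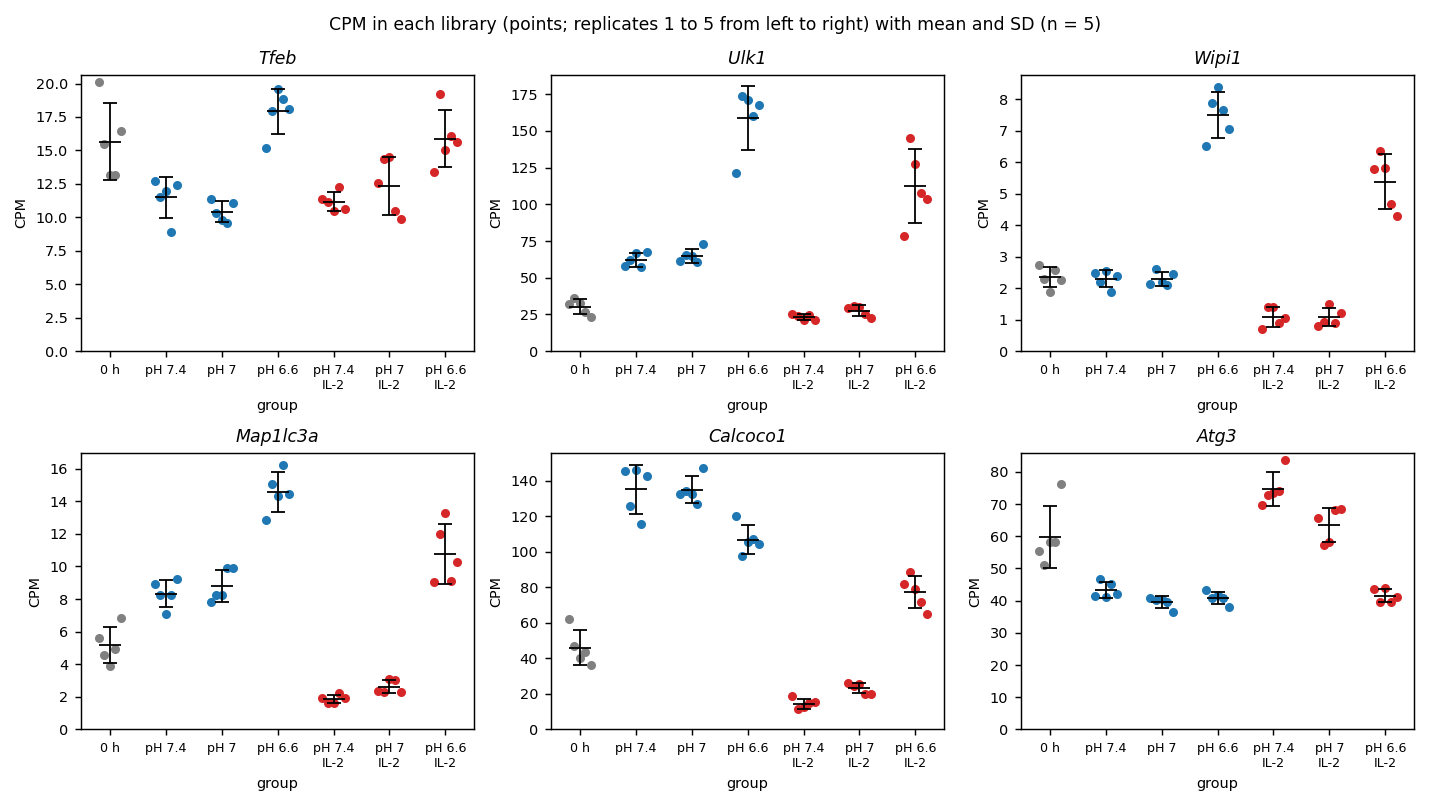
CPM of 6 genes in each of the 35 libraries (vertical axes, linear from 0) by group, with points for replicates 1 to 5 and black bars for the mean and SD (grey 0 h, blue without IL-2, red with IL-2). Ulk1, Wipi1 and Map1lc3a are highest in the 2 groups at pH 6.6 and lowest in the groups with IL-2 at pH 7.4 and pH 7, Calcoco1 is high in every 24-h group without IL-2, Atg3 runs the other way, and in Tfeb the libraries at pH 6.6 lie above those at pH 7.4 with and without IL-2.

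TFEB-family factors bind the E-box CACGTG, most tightly in a longer form called CLEAR, and the promoters of the 38 genes were searched for it on both strands in the RefSeq windows around the annotated starts (GRCm38.p6). Of the 38 genes, 31 had at least 1 window, 37 windows in all. The E-box was found in those of 4 genes, Atg3, Atg5, Atg7 and Atg14, and in 7.15% of all 32851 windows. Of these 4, Atg14 rose at pH 6.6 with IL-2, and the other 3 were among the 5 members that fell. The windows of Atg7 and Atg14 lie within the genes as GENCODE annotates them, at starts downstream of the first. The CLEAR form TCACGTGA, which holds the E-box, was found in the window of Atg3 and of no other member, and in 0.974% of all windows. The FOXO-type sequence GTAAACA was in 0 of the 37 member windows and in 3.65% of all. A match is a description of the letters and not of binding, and it does not tell which factor could bind. The E-box count of members is per gene, whereas the share over all is per window. The stretches below come from RefSeq, lie just before the annotated exons, read 5′ to 3′ on the gene's strand and have the E-box in capitals. Atg3 is shown for its pair of E-boxes and as the largest fall with IL-2, Atg5 for the E-box next to its start, and Calcoco1, whose stretch has none, as the gene with the largest interaction.
Atg3 (chr16:45158709-45158784, plus strand): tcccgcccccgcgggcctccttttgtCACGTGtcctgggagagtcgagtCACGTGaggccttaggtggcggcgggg
Atg5 (chr10:44268219-44268338, plus strand): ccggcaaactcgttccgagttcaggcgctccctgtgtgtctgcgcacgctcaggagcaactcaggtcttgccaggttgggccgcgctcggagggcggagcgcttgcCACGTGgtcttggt
Calcoco1 (chr15:102722179-102722298, minus strand): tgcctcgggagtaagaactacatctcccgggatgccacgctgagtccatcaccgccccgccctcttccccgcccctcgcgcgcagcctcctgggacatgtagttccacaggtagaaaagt

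Of the initiation complex, 4 of 5 genes rose at pH 6.6 with IL-2, where 35.4% of all genes tested rose. Without IL-2 2 of 5 rose, against 31.6% of all genes tested. Ulk1 (chromosome 5, 110784488 to 110810097, minus strand), the kinase that starts autophagy, had a CPM with IL-2 of 25.2, 24.3, 21.4, 24.7 and 21.4 at pH 7.4 and 78.2, 145, 127, 108 and 104 at pH 6.6. Without IL-2 the values were 57.8, 62.1, 66.7, 57.4 and 67.3 and 121, 174, 171, 160.5 and 167. Neither pair of groups overlapped, and replicate 1 was the lowest library of each group at pH 6.6. The rise was 4.75-fold with IL-2 (log2 2.25 ± 0.12, adjusted p = 8.78e-18) and 2.54-fold without (log2 1.35 ± 0.11, adjusted p = 3.37e-12), and the difference passed the test (0.90 ± 0.16, adjusted p = 6.91e-06). Ulk1 was also the member that IL-2 lowered most at pH 6.6, with a log2 fold change of -0.51 ± 0.11 (adjusted p = 0.000743), against -1.41 ± 0.11 at pH 7.4.

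Rb1cc1 (chromosome 1, 6206197 to 6276648, plus strand), which encodes the scaffold FIP200, rose in the presence of IL-2 and did not pass without it. In the presence of IL-2 its CPM was 59.7, 49.8, 50.5, 40.01 and 40.8 at pH 7.4 and 133, 137, 161, 103 and 120.3 at pH 6.6, groups that did not overlap (1.45 ± 0.12, adjusted p = 1.01e-12). In its absence the libraries overlapped, with 144, 144, 154, 151 and 109 at pH 7.4 and 174, 173, 177, 122 and 146 at pH 6.6, and the log2 fold change was 0.17 ± 0.12 (adjusted p = 0.211). Without replicate 4 that value was 0.28 and passed (adjusted p = 0.0257). The interaction was 1.28 ± 0.17 (adjusted p = 3.86e-08). Of the other members of the complex, Atg13, an adaptor of ULK1, rose by 1.10 with IL-2 and 0.46 without, and Ulk2, the second ULK kinase, by 0.54 with IL-2, with -0.06 (adjusted p = 0.428) without. Atg101, which stabilises ATG13, did not pass in any of the comparisons of pH or IL-2, with log2 fold changes from -0.24 to 0.09.

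Genes of the nucleation complex around VPS34 rose by 0.06 to 1.73 on the log2 scale with IL-2, the lowest of which did not pass. With IL-2, 5 of 6 genes rose at pH 6.6 and without it 6 of 6, against 35.4% and 31.6% of all genes tested. Atg14 (chromosome 14, 47540893 to 47570649, minus strand), the subunit that directs the complex to the forming autophagosome, was counted with IL-2 at 10.5, 8.68, 10.1, 9.31 and 9.44 CPM at pH 7.4 and 26.1, 37.02, 36.1, 28.4 and 31.9 at pH 6.6. Without IL-2 the values were 27.6, 30.6, 32.9, 31.9 and 32.02 and 35.3, 44.1, 45.8, 39.4 and 44.9. Each pair of groups was separate, with a larger gap in the presence of IL-2, where all 5 libraries at pH 7.4 were under those of any group without IL-2. The log2 fold changes were 1.73 ± 0.10 (adjusted p = 1.59e-16) and 0.43 ± 0.09 (adjusted p = 0.000161), and the interaction was 1.29 ± 0.14 (adjusted p = 5.69e-10), 1 of the 3 largest of the 38.

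Uvrag encodes the subunit that takes the place of ATG14 in a second VPS34 complex, which acts on endosomes and late autophagosomes. It did not pass with IL-2 (0.06 ± 0.06, adjusted p = 0.417), rose without it (0.27 ± 0.06, adjusted p = 0.000327), and had a negative interaction of -0.21 ± 0.09 (adjusted p = 0.0328). That interaction did not pass without replicate 1, 2, 3 or 4 (-0.11 to -0.23, adjusted p = 0.0765 to 0.335) or under RLE normalization (-0.19, 0.0527). With replicate 2 left out, Uvrag passed with IL-2 at 0.15 (adjusted p = 0.0441). Opposite-strand gene Gm45187 covers 17.6% of its exon bases, and the strand setting of the counting is not given in the sources used here. Pik3r4 (chromosome 9, 105642978 to 105687657, plus strand), the VPS15 subunit that anchors VPS34, went from 44.8, 53.01, 47.6, 45.9 and 46.6 CPM at pH 7.4 to 67.8, 88.03, 84.1, 75.7 and 81.5 at pH 6.6 with IL-2 and from 73.2, 78.7, 83, 72.5 and 81.2 to 84.2, 97.2, 96.2, 91.6 and 106 without. The groups did not overlap in either setting, and the log2 fold changes were 0.74 ± 0.07 (adjusted p = 2.34e-11) and 0.29 ± 0.07 (adjusted p = 0.000403). The lipid kinase itself, Pik3c3, rose by 0.59 and 0.20, of which the smaller did not pass without replicate 1 (0.18, adjusted p = 0.0506) or replicate 3 (0.17, 0.0623).

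Ambra1, a regulator that binds Beclin 1, rose by 0.51 with IL-2 and 0.43 without, with no detectable difference between the 2 (interaction 0.09, interval -0.16 to 0.33). Becn1, the gene of Beclin 1 and often taken as a marker of autophagy, rose by only 0.14 ± 0.05 with IL-2 and 0.24 ± 0.05 without, and the former did not pass without replicate 3 (0.12, adjusted p = 0.0927). The gene Cntd1 overlaps 43.9% of its exon bases on the opposite strand, so part of its count is uncertain. Over the 7 groups its mean level stayed within 24.2 to 30.01 RPKM.

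All 5 listed genes of the step that marks and feeds the growing membrane rose at pH 6.6, with and without IL-2. The shares of all genes tested were 35.4% and 31.6% for a rise, and 40.9% and 35.4% for a fall. The list does not hold every gene of this step. Among 12 further core genes of autophagy, described below, 5 rose and 3 fell with IL-2, and 4 rose and 3 fell without. Wipi1 (chromosome 11, 109573331 to 109611967, minus strand), a sensor of the lipid made by VPS34, was rare, at 0.6895, 1.39, 1.396, 0.9103 and 1.04 CPM at pH 7.4 and 5.78, 6.36, 5.83, 4.69 and 4.29 at pH 6.6 with IL-2. In the absence of IL-2 it was counted at 2.49, 2.199, 2.54, 1.88 and 2.397 and 6.52, 7.87, 8.405, 7.65 and 7.05 CPM. No library at pH 6.6 overlapped with any library of the other 5 groups, and the 2 groups at pH 6.6 were also apart from each other. Its rise was 4.94-fold with IL-2 (log2 2.30 ± 0.16, adjusted p = 2.34e-14) and 3.25-fold without (log2 1.70 ± 0.15, adjusted p = 1.03e-11), the largest of the 38 in the latter comparison. The interaction of 0.60 ± 0.22 (adjusted p = 0.0164) did not pass without replicate 1 (0.47, adjusted p = 0.071).

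Wipi2 (chromosome 5, 142627698 to 142670588, plus strand), which recruits the conjugation machinery, was much more abundant. Its CPM with IL-2 was 53.5, 49.6, 50.8, 51.4 and 56.1 at pH 7.4 and 118, 203, 194, 155 and 157 at pH 6.6, and without IL-2 91.6, 89.6, 97.2, 88.5 and 96.7 and 166, 239, 242, 218 and 226. As for Wipi1, each group at pH 6.6 was above all groups at higher pH, and the rises were 1.65 ± 0.10 (adjusted p = 7.47e-16) and 1.23 ± 0.10 (adjusted p = 2.59e-12). The interaction of 0.42 (adjusted p = 0.00893) did not pass without replicate 3 (0.34, 0.0755). Of the 2 lipid-transfer proteins of the ATG2 pair, Atg2a rose by 1.59 ± 0.15 with IL-2 and 0.55 ± 0.14 without and had an interaction of 1.05 ± 0.21 (adjusted p = 4.44e-05), while Atg2b rose by 0.21 ± 0.08 and 0.28 ± 0.08 with an interaction of -0.07 (interval -0.28 to 0.15). Atg9a, the scramblase of the vesicles that seed the membrane, rose by 0.93 and 0.63. For Atg9a, 31.8% of exon bases are shared with Gm29253 on the same strand, so its count may be partial.

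**Figure D4:**
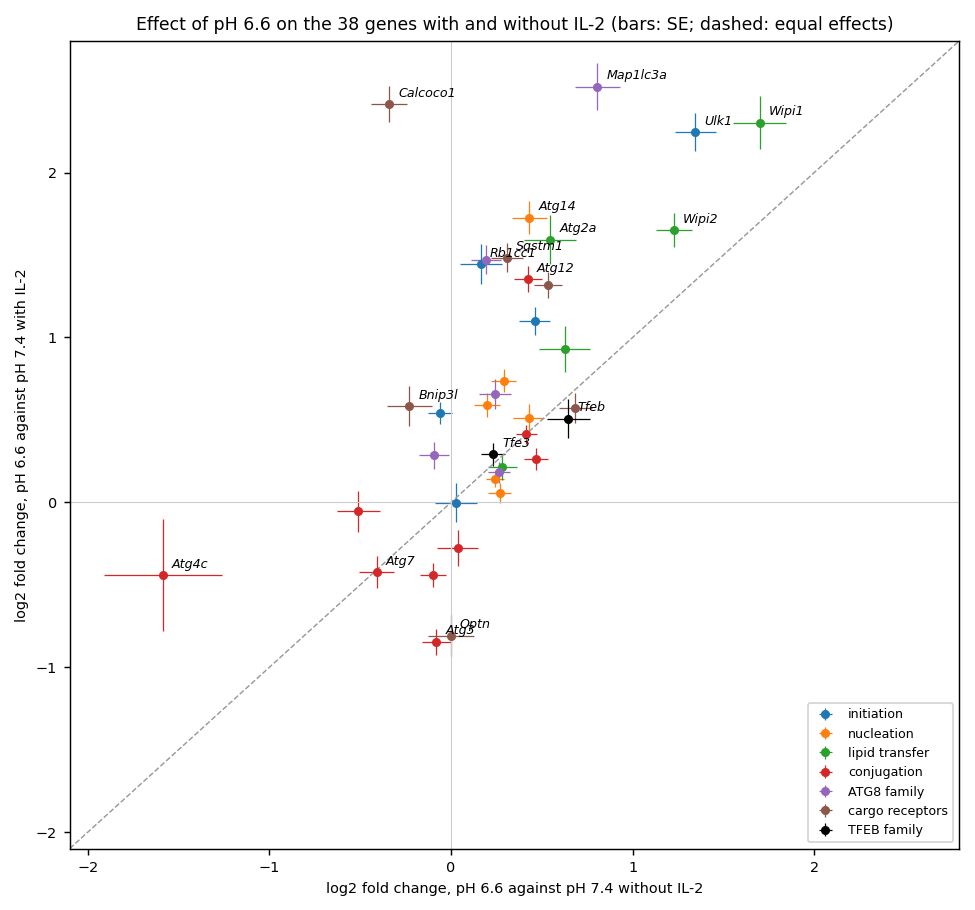
Log2 fold change of pH 6.6 against pH 7.4 for each of the 38 genes without IL-2 (horizontal axis) and with IL-2 (vertical axis), coloured by role, with SE bars and a dashed line where both are equal. Most points lie above the line, Tfeb and Tfe3 lie next to it, Calcoco1 stands at the upper left with -0.34 and 2.42, and Atg3, Optn and Atg5 lie below it.

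The listed conjugation enzymes moved in both directions. At pH 6.6 with IL-2, 3 of the 9 rose and 4 fell, with a median of -0.28, where 35.4% of all genes tested rose and 40.9% fell. Without IL-2 3 of them rose and 3 fell, where 31.6% of all genes tested rose and 35.4% fell. Whether this role differed from the others was not tested. Atg12 (chromosome 18, 46730144 to 46741580, minus strand), the ubiquitin-like protein that is joined to ATG5, rose at pH 6.6 with and without IL-2. With IL-2 it was counted at 42.8, 44.4, 48.2, 44.8 and 43.5 CPM at pH 7.4 and 114, 123, 137, 94.8 and 104 at pH 6.6, and without IL-2 at 99.2, 107, 106, 108 and 106 and 134, 152, 150.2, 129.6 and 141. Neither pair overlapped, with log2 fold changes of 1.35 ± 0.08 (adjusted p = 1.27e-16) and 0.42 ± 0.08 (adjusted p = 1.23e-05) and an interaction of 0.93 ± 0.11 (adjusted p = 4.37e-09).

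Atg3 (chromosome 16, 45158785 to 45188538, plus strand), the E2-like enzyme that transfers ATG8 proteins to lipid, fell. Its CPM with IL-2 was 69.7, 72.9, 73.4, 74.2 and 83.5 at pH 7.4 and 43.7, 39.6, 43.9, 39.6 and 41.1 at pH 6.6, with no overlap, and without IL-2 41.5, 46.6, 41.2, 45.1 and 42.2 and 43.2, 40.9, 41.6, 40.96 and 38.1, with overlap. The log2 fold change with IL-2 was -0.84 ± 0.08 (adjusted p = 1.92e-11), the value without IL-2 was -0.08 ± 0.08 (adjusted p = 0.371), and the difference was -0.76 ± 0.11 (adjusted p = 3.76e-07). IL-2 raised Atg3 at pH 7.4 by 0.78 ± 0.08 (adjusted p = 7.74e-11) and had no detectable effect at pH 6.6 (0.02, interval -0.14 to 0.17), where both groups lay at 39.6 to 43.9 CPM with and 38.1 to 43.2 CPM without it.

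Among the remaining enzymes, Atg5, the partner of ATG12, fell by 0.44 ± 0.07 with IL-2, with -0.10 ± 0.07 (adjusted p = 0.23) without. Its interaction of -0.34 did not pass without replicate 1 or 2 (adjusted p = 0.0855 and 0.0886). Atg7, the shared E1-like enzyme, fell alike in both settings (-0.42 ± 0.10 and -0.41 ± 0.10, interaction -0.01 with an interval of -0.28 to 0.26). Atg16l1, which places the complex on the membrane, rose in both (0.41 ± 0.06 and 0.41 ± 0.06). Atg10, the E2-like enzyme for ATG12, was near no change with IL-2 (-0.06, adjusted p = 0.691) and fell without it (-0.51 ± 0.12, adjusted p = 0.000331), and its positive interaction of 0.46 did not pass without replicate 3 or 4 (adjusted p = 0.0509 and 0.127).

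The ATG4 proteases in the list, which prepare ATG8 proteins and remove them from lipid, differed among themselves. Atg4a, counted among the related genes below, rose by 1.40 with IL-2 and 1.24 without. Atg4b, the main protease, rose by 0.26 ± 0.07 with IL-2 and 0.47 ± 0.07 without. Its negative interaction of -0.21 did not pass without replicate 1, 2, 3 or 4 (-0.13 to -0.24, adjusted p = 0.0664 to 0.276) or under RLE normalization (-0.19, adjusted p = 0.0664). Atg4d fell by 0.28 ± 0.11 with IL-2, with 0.04 (adjusted p = 0.787) without. The fall of Atg4d did not pass in 7 of 12 alternatives, among them the fits without replicate 1, 2, 4 or 5 (adjusted p = 0.133 without the last) and DESeq2 (-0.22, 0.079), and 19.3% of its exon bases are overlapped by Kri1 on the opposite strand. Atg4c was the rarest member, at 0.876 to 1.37 CPM at pH 7.4 and 0.188 to 0.588 at pH 6.6 without IL-2, a log2 fold change of -1.59 ± 0.33 (adjusted p = 8.35e-05). With IL-2 its value was -0.44 ± 0.34 (adjusted p = 0.237), and the interaction of 1.15 did not pass without replicate 1 or 3 (adjusted p = 0.0822 and 0.112).

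All 5 ATG8 genes rose at pH 6.6 with IL-2, where 35.4% of all genes tested rose. The LC3 genes rose by 2.52 and 1.47 on the log2 scale and the 3 GABARAP genes by 0.18 to 0.66. Map1lc3a (chromosome 2, 155276297 to 155278073, plus strand), which encodes LC3A, had a CPM of 1.95, 1.63, 1.64, 2.23 and 1.94 at pH 7.4 and 9.07, 11.99, 13.3, 9.13 and 10.3 at pH 6.6 with IL-2. Without IL-2 the libraries held 8.95, 8.25, 7.07, 8.22 and 9.203 at pH 7.4 and 12.9, 15.1, 14.3, 16.2 and 14.4 at pH 6.6. The pairs of groups did not overlap, and the group at pH 6.6 with IL-2 lay at or just above that at pH 7.4 without it. Its 5.75-fold rise with IL-2 (log2 2.52 ± 0.14, adjusted p = 1.07e-16) was the largest of the 38, against 1.75-fold without (log2 0.81 ± 0.12, adjusted p = 1.1e-06) and an interaction of 1.72 ± 0.19 (adjusted p = 1.58e-09).

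Map1lc3b (chromosome 8, 121590361 to 121598760, plus strand), which encodes LC3B, the form used most as an autophagosome marker, went with IL-2 from 41.1, 43.7, 41.95, 49.1 and 51.4 CPM at pH 7.4 to 108, 136, 130, 131 and 124 at pH 6.6, with no overlap (1.47 ± 0.09, adjusted p = 1.89e-16). In the absence of IL-2 the groups overlapped, with 126, 134, 138, 139.7 and 165 at pH 7.4 and 140.4, 148, 152, 176 and 186 at pH 6.6. That difference was 0.19 ± 0.08 (adjusted p = 0.0423) and did not pass without replicate 1, 2 or 4 (adjusted p = 0.0898, 0.126 and 0.159) or without the replicate block (0.0708). The interaction was 1.28 ± 0.12 (adjusted p = 3.6e-11).

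Gabarap, the most abundant member of the whole list per exon length, rose by 0.66 ± 0.09 with IL-2 and by 0.24 ± 0.09 without, and the latter did not pass without replicate 1, 3 or 4 (adjusted p = 0.103, 0.0704 and 0.0685) or without the block (0.0648). Gabarapl1 rose by 0.18 and 0.27, and 28.3% of its exon bases are overlapped on the opposite strand by 1700101I11Rik. Gabarapl2 rose by 0.29 with IL-2, where the groups overlapped, and that rise did not pass without replicate 3 (0.20, adjusted p = 0.0631). Without IL-2 its value was -0.09 (adjusted p = 0.323). In its transcripts, 87.8% of 50-base stretches occur in no other gene's transcripts, so some of its reads may have been left uncounted.

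Gabarap alone made up most of the family's summed level. With IL-2, the 5 genes together came to 145 ± 13.9 RPKM (SD, n = 5) at pH 7.4 and 223 ± 4.89 at pH 6.6, and to 218 ± 16.7 and 258 ± 14.9 without IL-2. The mean share of Gabarap was 65.6% and 66.7% with IL-2 and 66.8% and 66.8% without. Over the same groups Map1lc3a made up 1.103%, 4.07%, 3.25% and 4.79%, and Map1lc3b 4.18%, 7.49%, 8.61% and 8.29%. The share of Gabarapl1 went the other way with IL-2, from 21.5% to 15.7%. These shares are per GENCODE exon length, which can differ from the length that is transcribed in these cells.

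**Figure D5:**
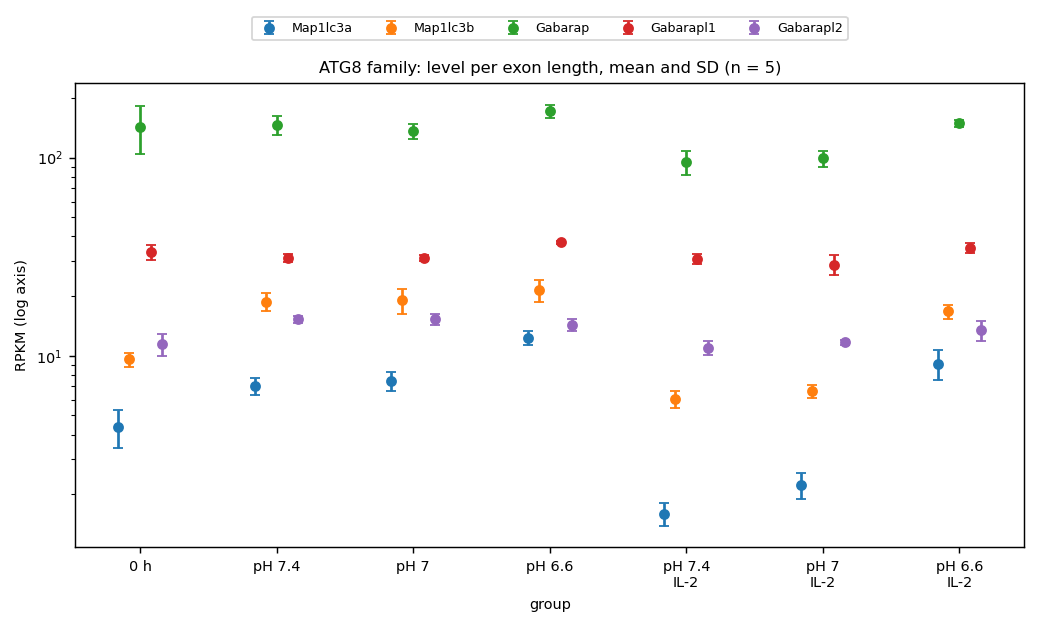
Level of the 5 ATG8 genes per exon length (RPKM, log axis) in the 7 groups, as the mean and SD of 5 libraries. Gabarap lies above the other 4 in every group, while Map1lc3a and Map1lc3b span the widest range, with their lowest means at pH 7.4 with IL-2 (1.59 ± 0.213 and 6.05 ± 0.607) and their highest at pH 6.6 without IL-2 (12.3 ± 1.04 and 21.4 ± 2.61).

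Of 6 listed cargo receptors, 5 rose and 1 fell at pH 6.6 with IL-2, where 35.4% of all genes tested rose and 40.9% fell. Without IL-2 3 rose and 1 fell, against 31.6% and 35.4% of all genes tested. Sqstm1 (chromosome 11, 50199366 to 50210827, minus strand), which encodes p62 and is itself degraded with its cargo as a protein, had a CPM of 134, 127, 124, 169 and 181 at pH 7.4 and 349, 487, 393, 404 and 407 at pH 6.6 with IL-2. Without IL-2 it was 392, 456, 375, 507 and 540.4 and 499, 575, 506, 648 and 563. The groups with IL-2 were apart and those without overlapped, although the library at pH 6.6 was the higher in 5 of 5 replicates. The log2 fold changes were 1.49 ± 0.09 (adjusted p = 4.52e-16) and 0.31 ± 0.09 (adjusted p = 0.0027), and the interaction was 1.18 ± 0.12 (adjusted p = 6.2e-10). Mrnip overlaps 17.3% of its exon bases on the opposite strand.

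Calcoco1 (chromosome 15, 102706777 to 102722178, minus strand), a receptor for autophagy of the endoplasmic reticulum, had the largest interaction of the 38. With IL-2 it was counted at 18.7, 11.3, 12.6, 14.7 and 15.4 CPM at pH 7.4 and 82.04, 88.7, 79.03, 71.9 and 65.1 at pH 6.6, and without IL-2 at 145, 126, 146, 116 and 143 and 120, 97.3, 105, 107 and 104. With IL-2 the groups were far apart. Without it they overlapped, with the library at pH 6.6 the lower in 5 of 5 replicates. The effect of pH 6.6 was 5.34-fold with IL-2 (log2 2.42 ± 0.11, adjusted p = 3.57e-19) and -0.34 ± 0.10 (adjusted p = 0.00355) on the log2 scale without, a difference of 2.76 ± 0.15 (adjusted p = 7.7e-17). The log2 fold change with IL-2 against without was -3.22 ± 0.11 at pH 7.4 and -0.46 ± 0.10 at pH 6.6.

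Of the other receptors, Nbr1, a partner of p62, rose by 1.32 with IL-2 and 0.54 without. Tax1bp1, a receptor for ubiquitin-marked cargo and the most abundant member by CPM at pH 6.6, rose by 0.57 and 0.68 with an interaction of -0.11 (interval -0.36 to 0.14). Bnip3l, a receptor on mitochondria also called NIX, rose by 0.58 ± 0.12 with IL-2 and was -0.23 ± 0.12 (adjusted p = 0.0973) without, and that value passed with only the groups compared (-0.24, 0.0405) and without replicate 2 (-0.33, 0.0358). Of the 50-base stretches of its transcripts, 79.2% occur in no other gene's transcripts, so some of its reads may have been left uncounted. Optn, a receptor for mitochondria and bacteria, fell by 0.81 ± 0.12 with IL-2 and was -0.001 (adjusted p = 0.995) without, and IL-2 raised it by 1.04 ± 0.12 (adjusted p = 4.42e-09) at pH 7.4.

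At pH 7, 4 of the 38 passed with IL-2 and 0 without. With IL-2, 3 members rose against pH 7.4 (Ulk2 by 0.22, Map1lc3a by 0.49 and Calcoco1 by 0.68), Atg3 fell by 0.23 ± 0.08, and 34 did not pass, where 9.15% of all genes tested rose and 9.83% fell. The rise of Calcoco1 was from 18.7, 11.3, 12.6, 14.7 and 15.4 CPM to 25.9, 24.4, 25.4, 19.9 and 20.2, groups that did not overlap, and that of Map1lc3a from 1.95, 1.63, 1.64, 2.23 and 1.94 to 2.38, 2.31, 3.09, 3.05 and 2.33. At pH 6.6 both genes were higher still. The count of members that rose at pH 7 was 1 without replicate 3. Map1lc3a did not pass without replicate 2, 3 or 4 (adjusted p = 0.09, 0.128 and 0.0568) or in libraries thinned to the smallest total (0.0971), and Ulk2 did not pass without replicate 3 or 5 (0.0752 and 0.0996) or with the looser filter (0.0701). Atg3 did not pass with the looser filter (adjusted p = 0.0932) or without replicate 2, 3 or 4 (adjusted p = 0.127, 0.162 and 0.0596). A fit of only the libraries of these groups called 10 rises. Wipi1 and Wipi2, which rose so much at pH 6.6, had log2 fold changes of -0.02 ± 0.19 and -0.07 ± 0.10 at pH 7, neither past the test. The step from pH 7 to pH 6.6 with IL-2 raised 29 members and lowered 6, where 32.5% of all genes tested rose and 40% fell.

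Without IL-2, 0 of the 38 passed between pH 7 and pH 7.4 by edgeR, and 0 by DESeq2, with 0 rises and 1 fall at an unadjusted p under 0.05 and log2 fold changes from -0.15 to 0.22. In that comparison 1.36% of all genes tested rose and 0.318% fell. At pH 7 IL-2 left 25 members lower and 4 higher (2 without replicate 1), with a median of -0.43, where 37.6% of all genes tested rose and 39.5% fell.

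Against the start of the culture, more members were lower than higher at pH 7.4 with IL-2 and more were higher than lower without it. After 24 h at pH 7.4 with IL-2, 7 were higher than at 0 h and 17 lower (of all genes tested 29% and 30.9%), whereas at pH 7.4 without IL-2 22 were higher and 5 lower (36.9% and 38.3%, and 3 members lower without replicate 1). At pH 6.6 with IL-2 the counts were 23 higher and 3 lower (30.5% and 38%), and without IL-2 27 and 5 (34.8% and 40.3%, and 3 lower without replicate 1). All 4 comparisons share the libraries at 0 h. Ulk1 stood at 23.5 to 36.4 CPM at 0 h and was lower after 24 h at pH 7.4 with IL-2 (-0.36), which did not pass without replicate 3 (-0.29, adjusted p = 0.077). It was higher in the other 3 groups, by 1.04 at pH 7.4 without IL-2, and at pH 6.6 by 1.88 in the presence of IL-2 and 2.39 in its absence. Calcoco1 fell by 1.66 at pH 7.4 with IL-2 and rose by 1.56 without.

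Bnip3l was highest of all at 0 h (204 to 322 CPM) and lower in every group at 24 h, with log2 fold changes of -1.54 and -0.56 at pH 7.4 with and without IL-2 and of -0.96 and -0.79 at pH 6.6. Tfe3 was lowest at 0 h (26.4 to 29.3 CPM) and rose in each, by 0.24, 0.47, 0.53 and 0.70 in the same order, of which the first did not pass with only the groups compared (adjusted p = 0.0815). Tfeb fell at pH 7.4 with and without IL-2 (-0.48 and -0.45) and did not pass at pH 6.6 (0.03 with and 0.20 without).

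Per exon length the members covered a wide range of levels. Over the 35 libraries the mean was 134 RPKM for Gabarap and 104 for Sqstm1, followed by Tax1bp1 (41.8), Bnip3l (41.2) and Gabarapl1 (32.5). At the other end were Optn (2.78), Tfeb (2.39), Wipi1 (0.713) and Atg4c (0.246). Between groups, the mean level of Calcoco1 ran from 2.54 to 23.6 RPKM, the widest ratio of the 38, and that of Atg101 from 7.49 to 9.17 RPKM, the narrowest.

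Genes next to the core list, in 5 related lists of 94 genes of which 90 were tested, moved in both directions. At pH 6.6 with IL-2, 34 of the 90 rose and 30 fell, with a median of 0.04, where 35.4% of all genes tested rose and 40.9% fell. Among 12 further core genes 5 rose and 3 fell, led by Wdr45, a WIPI-family protein (1.94), the membrane protein Tmem41b, which fell (-1.47), and the protease Atg4a (1.40). Without IL-2 Wdr45 was 0.21 (adjusted p = 0.0572, and 0.0172 by DESeq2), whereas Atg4a rose by 1.24 with no detectable interaction (0.16, interval -0.13 to 0.45). Among 15 genes of fusion with the lysosome 7 rose and 3 fell, with the largest changes in the tether Tecpr1 (2.01) and the SNARE Stx17 (1.11). Without IL-2 Tecpr1 was -0.02 (adjusted p = 0.92) and Stx17 fell (-0.28 ± 0.08, adjusted p = 0.00204).

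Of 13 tested selective autophagy genes, 4 rose and 8 fell at pH 6.6 with IL-2, where 35.4% of all genes tested rose and 40.9% fell. The mitochondrial kinase Pink1 went from 14.98 to 24.9 CPM at pH 7.4 to 93.9 to 139 at pH 6.6 with IL-2 (2.55 ± 0.09, adjusted p = 3.22e-21), and Trp53inp1, which binds ATG8 proteins, rose by 2.43. The mitophagy receptor Bnip3 fell, from 65.9, 194, 209, 244 and 323 CPM in the 5 libraries at pH 7.4 to 39.4, 39.3, 42.3, 45.3 and 49.5 at pH 6.6 (-2.19 ± 0.22, adjusted p = 3.53e-10), the opposite of its relative Bnip3l, and the libraries at pH 7.4 with IL-2 were widely spread. Without IL-2 the values of these 3 were 0.14, 0.21 and -0.16 (adjusted p = 0.158, 0.298 and 0.543).

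Of 20 tested regulators of TFEB, 7 rose and 7 fell at pH 6.6 with IL-2, where 35.4% of all genes tested rose and 40.9% fell. Flcn and Fnip1, whose proteins form the complex that lets mTORC1 phosphorylate TFEB, rose by 1.95 ± 0.10 (adjusted p = 2.07e-17) and 1.38 ± 0.11 (adjusted p = 3.98e-13), and both also rose without IL-2 (0.96 and 0.79). Fnip2, the alternative partner of FLCN, fell by 2.07 ± 0.17 (adjusted p = 9.87e-13) with IL-2. There its CPM was 17.1, 18.4, 17.3, 14.3 and 11.7 at pH 7.4 and 4.102, 3.44, 3.06, 4.44 and 3.67 at pH 6.6. Without IL-2 its CPM was 1.57 to 1.97 at pH 7.4 and 1.45 to 2.33 at pH 6.6. IL-2 raised Fnip2 by 3.10 ± 0.18 at pH 7.4 and lowered Fnip1 (log2 fold change -0.81 ± 0.11). Among 30 lysosome genes of the kind TFEB drives, 11 rose and 9 fell, with a median of 0.04, where 35.4% of all genes tested rose and 40.9% fell. Without IL-2 4 rose and 14 fell, with a median of -0.16, where 31.6% of all genes tested rose and 35.4% fell. Scarb2, a lysosomal membrane protein, rose with IL-2 (1.25) and without (0.64), while Ctsf and Sgsh, which encode a protease and a sulfatase, rose with IL-2 (1.18 and 1.08) and fell without (-1.80 and -1.07). Ctsf was rare, with at most 6.35 CPM in any library. With IL-2 it had 0.207 to 0.632 CPM at pH 7.4 and 0.462 to 1.34 at pH 6.6, groups that overlapped.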

How the data were processed

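RNA was measured in 35 libraries of OT-I CTLs, 5 in each of 7 groups, prepared by the authors with a stranded mRNA kit. The authors deposited 1 table of raw counts per library, with whole-number read counts for 48709 genes. The submitters' processing notes list cutadapt 1.8, STAR 2.5.2b, HTSeq 0.6.1 and the build GRCm38. The annotation release and the strand setting of the counting are not given in the sources used here. The summary rows for reads not counted on a gene were excluded from totals and tests. Among them, reads assigned to no gene made up 2.58 to 11.1% of all rows' counts and reads aligned to more than 1 place 32.8 to 48.3%. Counts on genes ranged from 16721319 to 34033340 per library.

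Symbols were assigned to 48349 gene IDs from GENCODE M21, and genes without a symbol were kept under their ID. The 38 members, the related lists and the markers were chosen with earlier results of these data known. Libraries were grouped by their labels. Counts were fitted with edgeR 4.0.16 (R 4.3.3) with TMM normalization, filterByExpr (minimum count 10), a model of group plus replicate number, and a robust quasi-likelihood test for each comparison, over all 35 libraries and 13819 genes. The fit was tested on simulated data. The series' design text says that 5 biological replicates were cultured in the conditions, and libraries that share a number deviated together, with a median correlation of 0.273 over 105 pairs against -0.0745 over 420 pairs that do not share one. No 2 libraries of a group agreed within sampling noise. CPM used the TMM library sizes, and RPKM the union exon length.

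All 38 members are named. Values of every library are given for Tfeb and Tfe3, for the 2 members of each role with the largest called change at pH 6.6 with IL-2 and for the 3 with the largest called interaction. From each related list at most 3 genes are named, those with the largest called change of at least 1 in the same comparison, besides Mitf and Tfec. Alternatives were DESeq2 1.42.0, RLE normalization, a looser filter (any gene with 1 count), a stricter filter (10 counts required in all libraries), fits restricted to the groups being compared, fits with no replicate block, libraries thinned to 16721319 counts, and leaving out each replicate number in turn.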

Additional observations from a re-analysis of the deposited data

Results flagged for a closer look

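In 5 of 98 groups of 5 libraries checked for 14 genes, 1 library lay farther from the rest than Dixon's 95% limit allows, and chance alone flags about 1 group in 20. Ulk1 had 1 library at 121.3 CPM at pH 6.6 without IL-2, where the nearest of the others had 160.5. Rb1cc1 had 1 library at 109.4 CPM at pH 7.4 without IL-2, against 144.1 for the nearest. Atg12 had 1 at 99.19 CPM in the same group, against 105.9. Atg3 had 1 library at 76.18 CPM at 0 h, against 58.15, and Sqstm1 had 1 at 156.9 CPM at pH 7 with IL-2, against 139.

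For 26 of the 38 genes the effect of pH 6.6 differed between cells with and without IL-2 by edgeR's test of the interaction, a share close to that of all genes tested (67%). The difference on the log2 scale, with minus without IL-2, was 2.756 for Calcoco1, 1.718 for Map1lc3a, 1.295 for Atg14, 1.281 for Rb1cc1 and 1.281 for Map1lc3b. Sqstm1 (1.178), Atg4c (1.145), Atg2a (1.046), Atg12 (0.933), Ulk1 (0.901), Bnip3l (0.813) and Nbr1 (0.786) followed. Smaller positive differences were those of Atg13 (0.640), Wipi1 (0.604), Ulk2 (0.599), Atg10 (0.457), Pik3r4 (0.446), Wipi2 (0.422), Gabarap (0.415), Pik3c3 (0.393) and Gabarapl2 (0.378). The negative differences were those of Optn (-0.807), Atg3 (-0.764), Atg5 (-0.341), Uvrag (-0.212) and Atg4b (-0.208).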

How the results depend on the processing

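Of 312 counts of members under the alternatives, 294 stayed within 1.5 times the value reported. At pH 7 with IL-2 the number of members that rose was 10 with only the groups compared and 1 to 3 with 1 replicate left out, and the number that fell was 0 with the looser filter and 0 to 1 with 1 replicate left out. The number of negative interactions was 3 under RLE normalization, the looser filter or the stricter filter and 2 to 5 with 1 replicate left out. With 1 replicate left out, IL-2 raised 2 to 5 members at pH 7 and lowered 10 to 15 at pH 6.6, and the members lower than at 0 h were 3 to 5 at pH 7.4 and 3 to 5 at pH 6.6 without IL-2, with 3 at pH 6.6 with only the groups compared.

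Over all genes, the calls at pH 7 with IL-2 numbered 4388 with only the groups compared and 1283 to 2425 with 1 replicate left out, those at pH 7 without IL-2 942 and 35 to 332, and those for IL-2 at pH 6.6 5369 and 2119 to 2630. Without the replicate block 1660 genes were called at pH 7 with IL-2 and 56 without IL-2. Where the block decided the call of a member in the comparisons of pH 6.6 with pH 7.4, it is given beside that gene.

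Changes of sign were found in 53 of 4088 values of single genes. At pH 6.6 with IL-2, Atg101 was 0.059 by DESeq2 and RLE, 0.003 without the replicate block, 0.064 with only the groups compared, 0.039 with the stricter filter, 0.081 thinned and -0.034 to 0.136 without 1 replicate. Atg10 was 0.004 by DESeq2, 0.005 by RLE, 0.011 with only the groups compared and -0.074 to 0.070 without 1 replicate. At pH 6.6 without IL-2, Optn was 0.041 by DESeq2, 0.040 by RLE and -0.101 to 0.122 without 1 replicate, Tecpr1 was 0.024 by DESeq2 and RLE and -0.144 to 0.089 without 1 replicate, and over the 5 fits without 1 replicate Ulk2 was -0.122 to 0.006, Atg101 -0.049 to 0.068 and Atg4d -0.084 to 0.094. For IL-2 at pH 7.4, Atg7 was -0.016 with the stricter filter and -0.047 to 0.078 without 1 replicate, and over those fits Becn1 was -0.082 to 0.002, Atg4b -0.094 to 0.004 and Tfeb -0.156 to 0.024. In the interaction, Atg101 was 0.026 with the stricter filter, 0.077 thinned and -0.085 to 0.068 without 1 replicate. Atg7 was 0.004 by DESeq2 and RLE, 0.039 with the stricter filter, 0.107 thinned and -0.092 to 0.181 without 1 replicate. Atg16l1 was 0.016, 0.015, 0.051 and 0.007 under the same settings and -0.044 to 0.112 without 1 replicate. Without 1 replicate Atg2b was -0.115 to 0.064, Gabarapl1 -0.092 to 0.015 and Tax1bp1 -0.152 to 0.007. The cause was not tested for any of these changes.

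With every library thinned to the smallest total, calls were lost for Atg4c, Uvrag, Atg10, Map1lc3a, Wipi1, Atg16l1, Tax1bp1 and Gabarapl1, each in at least 1 comparison. The strand setting is not stated. How reads were assigned where genes on the opposite strand overlap Becn1, Gabarapl1, Atg4d, Uvrag and Sqstm1 is therefore not known.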
